A study of Mus musculus with 12 samples.

Results

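Dffa and 7 other genes of the cell's intrinsic death programme were followed in the spinal cord of mice that carry a neuropathy-causing deletion in Gars. The 8 genes are Dffa, Dffb, Casp6, Casp9, Apaf1, Bax, Bcl2 and Bcl2l1, out of 38924 genes in the deposited tables, and they were found by symbol in all 12 libraries. They were chosen by name after the genotype comparison of these same libraries was known, in which Dffa had one of the smallest p-values. The genotype values of the 8 genes are therefore given as a description with an error, and counts of them past a threshold stand beside the share of all genes, as description too. Their differences between sexes and between sets of mice did not enter that choice and were tested.

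The study measured polyA-selected RNA of the whole spinal cord in 12 mice aged 8 weeks, all on a mixed B6J;FVB background. Of these, 6 mice carried the ETAQ deletion on 1 copy of Gars (ETAQ, written GarsdelETAQ/+ in the series title and ETAQ+/- in the labels), and 6 were WT (written ETAQ+/+ in the labels). Each genotype had 3 females and 3 males, and each library came from 1 mouse numbered in its title. The product of Gars, glycyl-tRNA synthetase, loads glycine onto its tRNA, and dominantly inherited changes in the human gene lead to a neuropathy of peripheral nerves. Whole tissue was sampled, so fewer cells of a type and less RNA per cell cannot be told apart in any value below.

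The intrinsic pathway of apoptosis starts at the mitochondrion. Bax and its relatives make pores in the outer mitochondrial membrane, guardian proteins such as Bcl2 and Bcl-xL (from Bcl2l1) hold them back, and released cytochrome c lets Apaf1 assemble the apoptosome that activates caspase 9. Effector caspases then cut many proteins, among them the inhibitor ICAD (from Dffa), which frees the nuclease CAD (from Dffb) to cleave DNA between nucleosomes. ICAD is also the chaperone that CAD needs to fold, so Dffa is both a partner and a brake of Dffb, and in neurons caspase 6 is known for its part in the pruning and breakdown of axons.

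Libraries held 23595944 to 41452700 expected counts (read pairs per gene as estimated by the authors' software), and 17189 genes passed the filter on low counts. All 8 genes passed it. Counts scaled by library size are called normalised CPM (counts per 1000000) here, and TPM is the deposited level per transcript length. Gars itself stood at 136 to 151 normalised CPM in ETAQ and at 119.7 to 133 in WT. Gene counts do not separate the deleted from the normal copy, so that value does not check the genotype labels. An earlier look at these data found that libraries also separate by mouse number. The 3 WT males, with 2 of the ETAQ males, were among mice 1 to 6, and the 3 WT females, with 2 of the ETAQ females, among mice 7 to 12. ETAQ mouse 1, a female, and ETAQ mouse 11, a male, sat in the other sex's set. Genotypes were thus balanced in each set, but sex and set coincided fully in WT and largely in ETAQ. Of the genes tested, 1356 differed between the sets (7.89%, edgeR's quasi-likelihood test, adjusted p under 0.05).

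Among the 8 genes, Dffa, chosen with this comparison in view, had the largest genotype difference. Its level was lower by 32.8% in ETAQ cords, and the 2 genotypes did not overlap, whereas the other 7 genes overlapped between genotypes and had fold changes between 0.994 and 1.06. The 95% intervals of those 7 still allow differences, the widest being that of Casp6, from 0.868-fold to 1.29-fold. Of the 8 genes, 1 passed the threshold in the genotype comparison (edgeR adjusted p under 0.05, sex as covariate) against 1.92% of all genes tested, and it was lower, as were 1.34% of all genes. Likewise 1 of 8 had genotypes that did not overlap in normalised CPM, against 2.01% of all genes. Since the 8 genes were chosen with this comparison in view, nothing is read from these counts. The median log2 fold change of the 8 genes was 0.02, and that of all genes tested was 0.00.

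**Figure D1:**
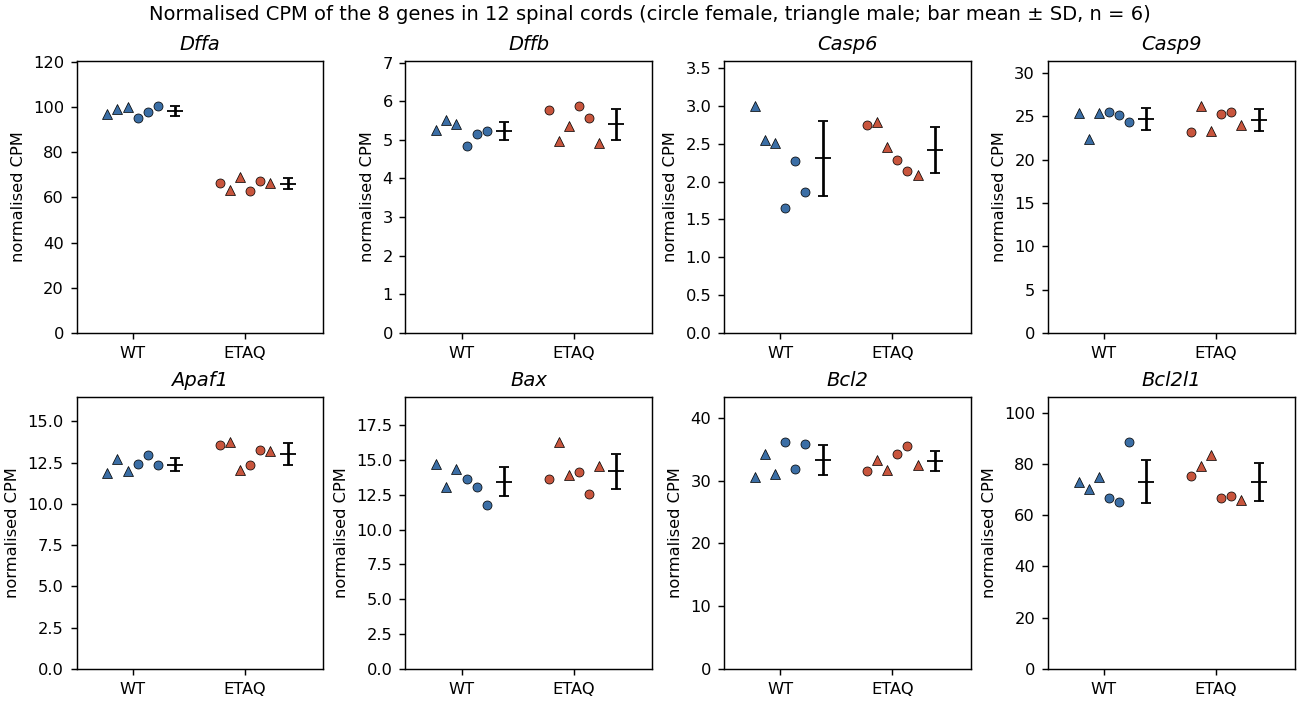
Normalised CPM (y axis, from 0) of each of the 8 genes in the 12 spinal cords, grouped by genotype (x axis), with circles for females, triangles for males and bars for the mean ± SD (n = 6). Dffa is the gene whose ETAQ mice (63.0 to 69.1) all sit below its WT mice (94.97 to 100.3), and the other 7 panels overlap.

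Dffa (ENSMUSG00000028974) encodes ICAD, the inhibitor and chaperone of the caspase-activated nuclease. In GRCm38 it lies on the plus strand of chromosome 4, from 149104146 to 149120647. In ETAQ cords it ranged from 63.0 to 69.1 normalised CPM with a median of 66.6. In WT cords it ranged from 94.97 to 100.3 with a median of 98.4. Every ETAQ mouse was thus below every WT mouse, and the gap between the nearest mice was wider than the range within either genotype. The means were 66.0 ± 2.44 in ETAQ and 98.2 ± 2.07 in WT (SD, n = 6 each). The log2 fold change was -0.57 ± 0.03 (SE; 95% interval -0.64 to -0.51). Behind these values stood 1472 to 2250 expected counts per ETAQ library and 2607 to 4118 per WT library.

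The lower level of Dffa was much the same size in each way of dividing the mice. The divisions by sex and by set share most mice, and Dffa was chosen on these same libraries. These values are therefore a description and give no separate support. Its log2 fold change was -0.57 ± 0.04 (SE) in females and -0.57 ± 0.04 in males. It was -0.57 ± 0.05 within mice 1 to 6 and -0.58 ± 0.05 within mice 7 to 12. By mean, ETAQ females were at 65.7 ± 2.35 and ETAQ males at 66.2 ± 3.01 normalised CPM (SD, n = 3 each). WT females were at 97.6 ± 2.66 and WT males at 98.7 ± 1.68. The 4 groups of 3 mice thus split by genotype and not visibly by sex.

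**Figure D2:**
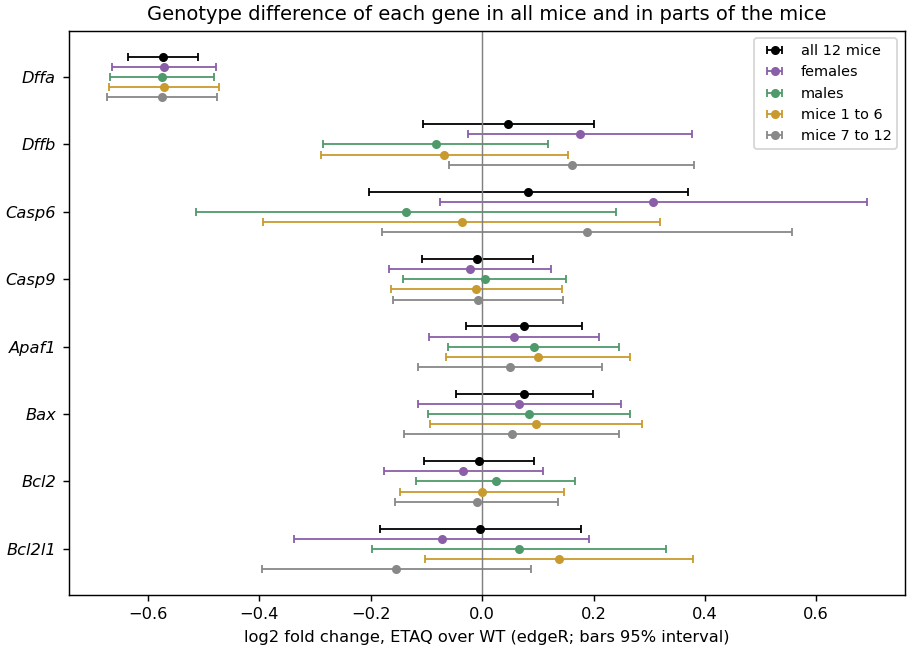
Log2 fold change of ETAQ over WT (x axis, edgeR) for each of the 8 genes (y axis) in all 12 mice, in females, in males, in mice 1 to 6 and in mice 7 to 12, with bars for 95% intervals. The 5 Dffa values lie between -0.58 and -0.57, and the intervals of the other 7 genes include 0 in every division.

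Dffb (ENSMUSG00000029027, minus strand of chromosome 4, 153964449 to 153975126) encodes CAD, the nuclease that ICAD holds inactive. It ranged from 4.91 to 5.86 normalised CPM in ETAQ with a median of 5.46. In WT it ranged from 4.83 to 5.51 with a median of 5.24. The ranges overlapped over most of their width, and the log2 fold change was 0.05 ± 0.07 (SE), with a 95% interval of 0.929-fold to 1.15-fold. That interval does not reach the 0.672-fold level of Dffa, which is a description, since Dffa was chosen on these same libraries. Behind Dffb stood 116 to 222 expected counts per library.

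Because both proteins act as 1 complex, their transcripts were also set against each other per length. Dffa stood at 58.6 ± 3.75 TPM in ETAQ and 84.4 ± 4.27 TPM in WT. Dffb stood at 7.38 ± 1.60 TPM in ETAQ and 6.99 ± 0.656 TPM in WT (SD, n = 6 each). The ratio of Dffa to Dffb TPM was 8.18 ± 1.38 in ETAQ (5.80 to 9.67) and 12.1 ± 1.03 in WT (10.7 to 13.4), without overlap. Transcripts of the inhibitor gene thus outnumbered those of the nuclease gene in all 12 cords, by a smaller factor in ETAQ. These TPM values pool all transcripts of a gene, and GENCODE M21 does not class all those of Dffb and Dffa as protein-coding. The ratio is therefore not one of coding transcripts alone. The lowest ratio, 5.80, was that of ETAQ mouse 1, whose Dffb value was 10.2 TPM but 5.77 normalised CPM, with an estimated mean transcript length of 1209 bases against 1328 to 1668 in the other 11 libraries. Without that mouse the ratio of the 2 mean ratios was 0.712 in place of 0.673. The estimated transcript length of Dffa overlapped between genotypes, at 2140 to 2174 bases in ETAQ and 2142 to 2178 in WT.

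**Figure D3:**
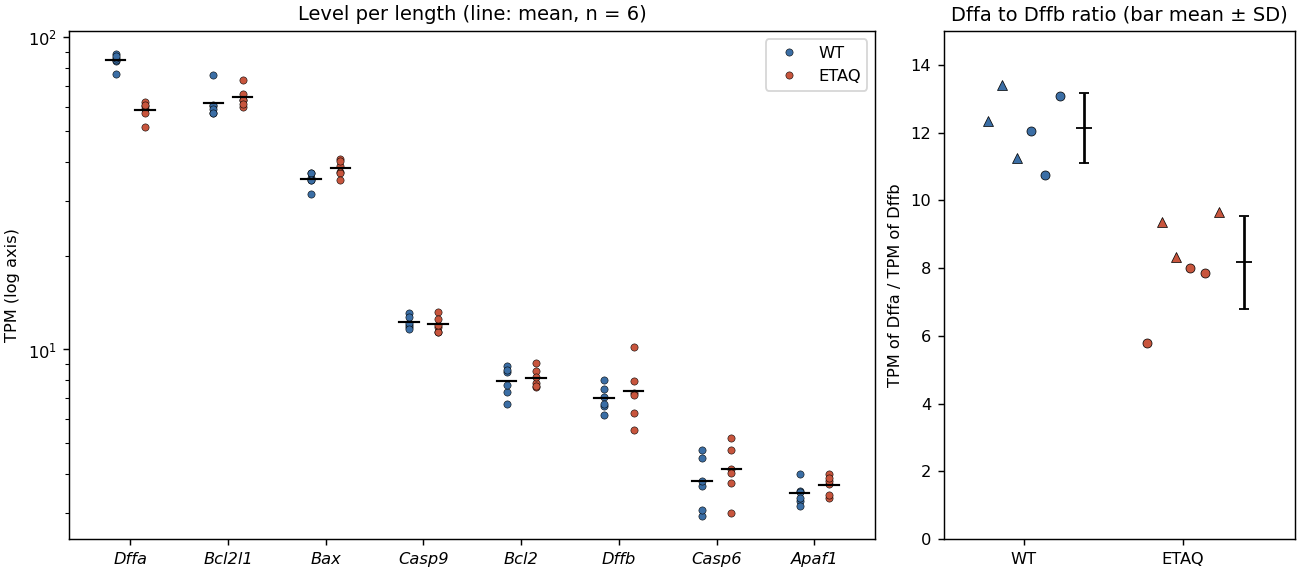
Left, TPM (log axis) of the 8 genes (x axis) in each library, blue for WT and red for ETAQ, with a line at the mean of 6 mice. Right, the ratio of Dffa to Dffb TPM (y axis, from 0) per library with circles for females, triangles for males and bars for mean ± SD, where ETAQ mice lie between 5.80 and 9.67 and WT mice between 10.7 and 13.4.

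The windows upstream of Dffa and Dffb are shown because these are the subunits of 1 complex, of which the first was lower in ETAQ and the second overlapped. Each is 200 bases, from 250 to 51 bases before the RefSeq start, printed 5′ to 3′ in the gene's direction from RefSeq on GRCm38.p6. They span chr4:149103892-149104091 for Dffa (plus strand) and chr4:153975132-153975331 for Dffb (minus strand). Capitals mark the matches of 5 motifs searched on both strands, none of which contains another. They were a TATA box searched as TATAAA, the box known by its letters CCAAT, a GC box searched as GGGCGG, a cyclic AMP element searched as TGACGTCA and a C/EBP-ATF element searched as TGATGNAA.
Dffa: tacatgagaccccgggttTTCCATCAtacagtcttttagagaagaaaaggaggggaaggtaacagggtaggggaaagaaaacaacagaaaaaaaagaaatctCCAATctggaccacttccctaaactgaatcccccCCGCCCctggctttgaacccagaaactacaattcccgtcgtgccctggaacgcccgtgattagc
Dffb: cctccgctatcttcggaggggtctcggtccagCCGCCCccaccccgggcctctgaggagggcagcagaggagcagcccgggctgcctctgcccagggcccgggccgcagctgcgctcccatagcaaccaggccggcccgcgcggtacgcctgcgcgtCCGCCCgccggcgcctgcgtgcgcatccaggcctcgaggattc

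The window of Dffa held 1 match each of the C/EBP-ATF element, the CCAAT box and the GC box, beginning 232, 148 and 114 bases before the start. That of Dffb held 2 GC boxes, beginning 218 and 93 bases before the start. Among all 32851 windows of the same length in the RefSeq table, 2.715% held the C/EBP-ATF letters, 28.4% the CCAAT box, 24.6% the GC box, 9.14% the TATA box and 0.828% the cyclic AMP element. GC content was 48.5% for Dffa and 76% for Dffb, against a median of 51.5% over all windows. All 8 genes matched the table, with 10 windows among them, and each of the 8 except Bcl2l1, which has 3 windows, held at least 1 GC box. These are matches of letters, and binding was not measured. Bases nearer the start than 51 were not searched, so a motif there, such as a TATA box, would be missed.

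The caspases and the apoptosome scaffold overlapped between genotypes. Casp9 (ENSMUSG00000028914, chromosome 4, 141793612 to 141815976), the initiator caspase, ranged from 23.2 to 26.1 normalised CPM in ETAQ (median 24.6) and from 22.3 to 25.5 in WT (median 25.3). Its log2 fold change was -0.01 ± 0.05 (SE; 0.928-fold to 1.06-fold). Apaf1 (ENSMUSG00000019979, chromosome 10, 90989311 to 91082770), which forms the apoptosome, ranged from 12.04 to 13.7 in ETAQ (median 13.2) and from 11.8 to 13.0 in WT (median 12.4). The ETAQ mice reached higher, and the log2 fold change of 0.07 ± 0.05 had an interval of 0.980-fold to 1.13-fold. Casp6 (ENSMUSG00000027997, chromosome 3, 129901425 to 129914103), the effector caspase linked to axon breakdown, was the lowest in counts, with 46 to 103 per library. It ranged from 2.09 to 2.79 normalised CPM in ETAQ (median 2.37) and from 1.65 to 2.99 in WT (median 2.39). Both ends of the WT range lay outside that of ETAQ, and the log2 fold change was 0.08 ± 0.13 (0.868-fold to 1.29-fold), the widest interval of the 8.

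The Bcl2 family genes likewise showed no separation of genotypes. Bax (ENSMUSG00000003873, chromosome 7, 45461697 to 45466898), the pore former, ranged from 12.5 to 16.2 normalised CPM in ETAQ (median 14.0) and from 11.8 to 14.7 in WT (median 13.3). Its log2 fold change was 0.08 ± 0.06 (SE; 0.968-fold to 1.15-fold). Bcl2 (ENSMUSG00000057329, chromosome 1, 106538178 to 106714274), the founding guardian, ranged from 31.6 to 35.5 in ETAQ (median 32.9) and from 30.6 to 36.1 in WT (median 33.0). The ETAQ range lay inside that of WT, and the log2 fold change was -0.01 ± 0.05 (0.931-fold to 1.07-fold). Bcl2l1 (ENSMUSG00000007659, chromosome 2, 152780668 to 152831728), the source of Bcl-xL, ranged from 65.9 to 83.4 in ETAQ (median 71.4) and from 65.1 to 88.4 in WT (median 71.7). WT mouse 12 held the highest value, and the log2 fold change was -0.00 ± 0.08 (0.880-fold to 1.13-fold). As a description, the interval of each of the 7 genes other than Dffa stops short of the 0.672-fold level of Dffa. Dffa was chosen on these same libraries, and whether the 7 genes differ from it was not tested.

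Balances between members also overlapped between genotypes. The ratio of Bax to Bcl2l1 TPM was 0.595 ± 0.0632 in ETAQ and 0.576 ± 0.0791 in WT (SD, n = 6 each). The ratio of Bax to Bcl2 was 4.70 ± 0.490 in ETAQ and 4.47 ± 0.613 in WT. The ratio of Casp9 to Apaf1 was 3.27 ± 0.229 in ETAQ (2.96 to 3.51) and 3.54 ± 0.201 in WT (3.28 to 3.86). In both genotypes the cord thus held more Bcl2l1 than Bax transcripts, more Bax than Bcl2, and more Casp9 than Apaf1.

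Per transcript length, the guardian Bcl2l1 and the inhibitor Dffa were the most abundant of the 8 genes and Casp6 and Apaf1 the least. Mean TPM in WT cords was 84.4 for Dffa, 61.7 for Bcl2l1, 35.1 for Bax, 12.2 for Casp9, 7.94 for Bcl2, 6.99 for Dffb, 3.78 for Casp6 and 3.46 for Apaf1. Dffa was above Bcl2l1 in 6 of 6 WT libraries and in 0 of 6 ETAQ libraries, where Bcl2l1 stood at 64.3 ± 4.68 TPM. Both genes were nearly tied in ETAQ mouse 9 (Dffa 62.29, Bcl2l1 62.8 TPM) and ETAQ mouse 11 (60.75 and 61.07). Bcl2l1, Bax, Casp9 and Bcl2 kept that order in 6 of 6 libraries of each genotype, as did Dffb above Casp6. Bcl2 was above Dffb in 4 of 6 WT and 5 of 6 ETAQ libraries, and Casp6 above Apaf1 in 4 of 6 and 5 of 6, so those neighbours were not apart beyond their spread.

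Tests that did not enter the choice of the genes compared females with males. None of the 8 genes passed the threshold for sex (0 of 8, edgeR adjusted p under 0.05, against 0.0931% of all genes). At an unadjusted p under 0.05 there was 1 of 8, against 16.8% of all genes, so that count does not stand above the background. The gene was Bax, at 14.5 ± 1.05 normalised CPM in males and 13.1 ± 0.866 in females (SD, n = 6 each), a log2 difference of 0.14 ± 0.06 (SE, edgeR adjusted p = 0.253). Dffa differed by 0.01 ± 0.03 (edgeR adjusted p = 0.833), with a 95% interval of 0.967-fold to 1.06-fold. DESeq2 and limma-voom also called 0 of 8. These fits leave out the set of mice, which largely coincides with sex, so sex and set are mixed in them. With set as a covariate (edgeR), 0 of 8 passed. At an unadjusted p under 0.05 there were then 0 of 8, against 611 of 17189 genes. In that fit Bax differed by 0.12 ± 0.08 (SE), and Casp6 by -0.01 ± 0.15, where Casp6 had been at 0.25 ± 0.13 without set. Whether the genotype difference itself differed between sexes was tested as an interaction, and 0 of 8 genes passed with edgeR, DESeq2 or limma-voom, and 0 had an unadjusted p under 0.05 with edgeR. Of all genes, 0% passed with edgeR, with 852 of 17189 at an unadjusted p under 0.05, and limma-voom called 0 and DESeq2 3. For Dffa the male difference minus the female one was -0.00 ± 0.06 (SE, edgeR adjusted p = 0.999; 95% interval 0.911-fold to 1.09-fold). For Casp6 it was -0.44 ± 0.25 and for Dffb -0.26 ± 0.13 (edgeR adjusted p = 0.901 for both), and these wide errors do not show that the sexes acted alike.

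The sets of mice gave the same count. The labels name 2 library kits and do not assign them to mice, so whether the sets differ by kit is not known. With genotype and sex in the fit, 0 of 8 genes differed between mice 1 to 6 and mice 7 to 12 with edgeR, DESeq2 or limma-voom, where edgeR called 7.89% of all genes. Casp6 was the 1 gene of 8 at an unadjusted p under 0.05, against 21.9% of all genes, at 2.67 ± 0.207 normalised CPM in mice 1 to 6 and 2.05 ± 0.248 in mice 7 to 12 (SD, n = 6 each), a log2 difference of 0.39 ± 0.15 (SE, edgeR adjusted p = 0.131). Its values did not overlap between the sets, which held for 1 of 8 genes and for 8.85% of all genes. Without WT mouse 12 a set difference of 0.20 ± 0.04 was called for Bcl2l1 (edgeR adjusted p = 0.0152), against 0.15 ± 0.11 with all mice (adjusted p = 0.494). Dffa differed by 0.01 ± 0.04 between sets (edgeR adjusted p = 0.926). The genotype-by-set interaction passed for 0 of 8 genes and 0% of all genes with edgeR. At an unadjusted p under 0.05 there were 0 of 8 and 683 of all genes. Of all genes limma-voom called 0 and DESeq2 3. For Dffa the interaction was 0.00 ± 0.07 (SE). It was 0.29 ± 0.16 for Bcl2l1, -0.23 ± 0.15 for Dffb and -0.23 ± 0.25 for Casp6, and these wide errors do not show that the sets acted alike. With DESeq2 Bcl2l1 had an unadjusted p under 0.05. All WT males were in 1 set and all WT females in the other. The genotype-by-set interaction is therefore the same test as the genotype-by-sex interaction with set as a covariate.

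The rest of the pathway was read from 12 further lists of apoptosis genes, chosen with earlier results of these data known. Their counts of calls are therefore a description. Of their 108 genes, 106 were in the tables and 96 were tested; 1 rose in ETAQ, 0 fell, and 16 had an unadjusted p under 0.05 (edgeR). That is 1 of 96 called, against 1.92% of all genes, and 16 of 96 unadjusted, against 10.9% of all genes, and the median log2 fold change of the 96 was -0.01. The gene that rose was Chac1, a glutathione-degrading enzyme induced by endoplasmic reticulum and amino acid stress. It stood at 9.02 ± 0.433 normalised CPM in ETAQ (8.23 to 9.56) and 5.44 ± 0.429 in WT (4.65 to 5.84; SD, n = 6 each), a log2 fold change of 0.73 ± 0.07 (SE, edgeR adjusted p = 1.6e-05). It was 1 of 8 tested genes of the stress-linked death regulators, among which the transcription factor gene Ddit3 (CHOP) was at 0.23 ± 0.09 (adjusted p = 0.288) and Trib3 at 0.40 ± 0.20 (adjusted p = 0.541). Ddit3 and Trib3 were picked after their values were seen.

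Upstream of the mitochondrion, the BH3-only genes gave 0 calls among 9 tested, with 3 at an unadjusted p under 0.05. The smallest p was that of Bnip3, a mitochondrial BH3 protein also known for mitophagy, at 96.9 ± 2.65 normalised CPM in ETAQ and 104.1 ± 2.2 in WT (SD, n = 6 each), a log2 fold change of -0.10 ± 0.03 (SE, edgeR adjusted p = 0.0728). The other two, Hrk (0.26 ± 0.09, adjusted p = 0.255) and Bcl2l11 (BIM; 0.22 ± 0.08, adjusted p = 0.266), had the opposite sign, and the median of the list was 0.12; both were named after their values were seen. The other guardians of the Bcl2 family had 0 calls among 3 tested and 1 at an unadjusted p under 0.05 (Bcl2l2, -0.06 ± 0.03, adjusted p = 0.388). The other pore formers and relatives had 0 calls among 5 and 1 unadjusted (Bcl2l13, -0.09 ± 0.04, adjusted p = 0.388), and the p53 axis 0 among 11 and 1 unadjusted (Ppp1r13b, -0.08 ± 0.03, adjusted p = 0.366). The JNK and DLK arm, a kinase relay that carries axon injury signals to the nucleus, had 0 among 10, with 4 at an unadjusted p under 0.05 (Mapk9, -0.09 ± 0.04, adjusted p = 0.315).

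At and below the mitochondrion, and in the separate death receptor arm, the picture was alike. Among the mitochondrial death factors, other caspases, inhibitor of apoptosis and phosphatidylserine exposure genes 0 had an unadjusted p under 0.05. The mitochondrial death factors had 0 calls among 9 tested and a median log2 fold change of -0.04 (smallest p: the channel gene Vdac1, -0.04 ± 0.03, adjusted p = 0.613). The other caspases had 0 among 7, and the inhibitor of apoptosis genes 0 among 10 (Naip6, 0.32 ± 0.19, adjusted p = 0.627). Among other nucleases and chromatin condensers 0 of 10 passed, with 2 at an unadjusted p under 0.05. The nearest was Cidea, whose protein shares the CIDE-N domain with ICAD and CAD, at 4.16 ± 0.603 normalised CPM in ETAQ and 2.98 ± 0.532 in WT, a log2 fold change of 0.48 ± 0.12 (SE, edgeR adjusted p = 0.0565). The other of the 2, its relative Cideb, had the opposite sign (-0.25 ± 0.10, adjusted p = 0.352) and was named after its value was seen. The death receptor arm had 0 among 12 and 2 unadjusted (Ngfr, the p75 neurotrophin receptor, 0.47 ± 0.12, adjusted p = 0.0741), and the phosphatidylserine exposure genes 0 among 6. Copies of Naip genes are near-identical, so reads may be split between them.

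**Figure D4:**
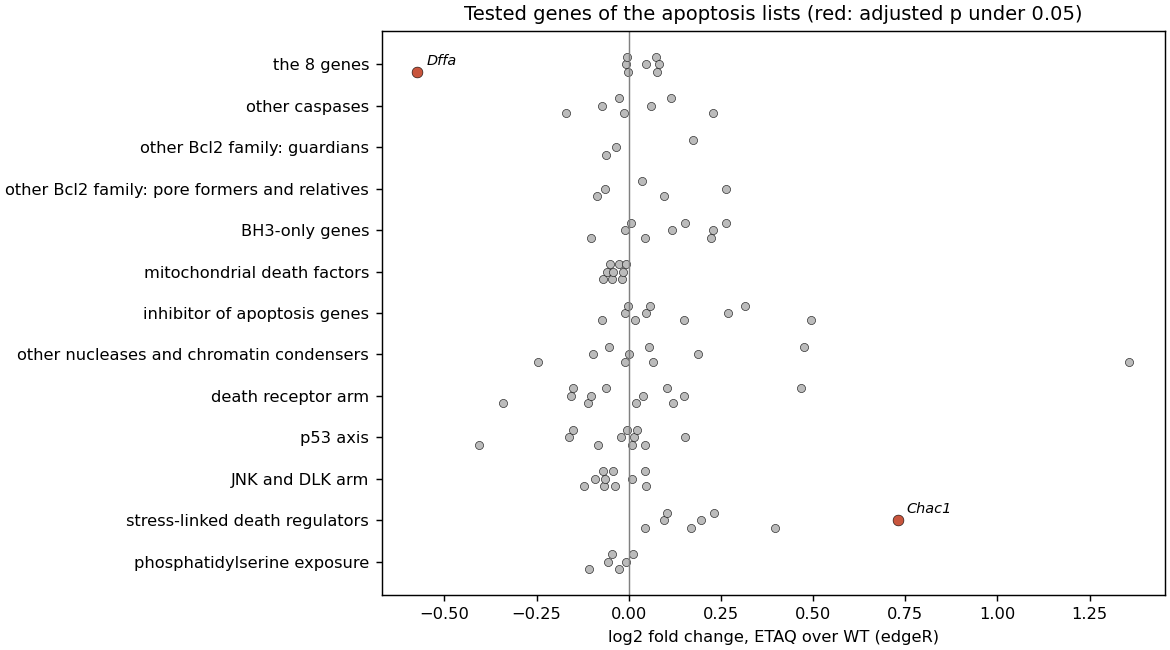
Log2 fold change of ETAQ over WT (x axis, edgeR) of every tested gene of the 8 genes and of the 12 further lists (y axis), red where the adjusted p was under 0.05; a gene on several lists is drawn in each. Dffa lies at -0.57 and Chac1 at 0.73.

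The number of calls in the further lists moved with the model. Chac1 passed in every fit run, including those that left out 1 mouse. With the set of mice as a covariate, where calls over all genes went from 330 to 465 of 17189, 5 of the 96 genes passed, Chac1, Cidea and Ngfr as higher and Bnip3 and the death receptor gene Tnfrsf21 (DR6) as lower. With DESeq2, which called 506 of all genes, 4 passed, the same genes without Tnfrsf21, and with limma-voom Chac1 was the 1 gene called. Without WT mouse 4 Map3k13 was called beside Chac1, and without ETAQ mouse 11 Ngfr and Tnfrsf21 were. With all mice and edgeR Tnfrsf21 stood at -0.11 ± 0.03 (adjusted p = 0.154) and Map3k13, the kinase LZK, at -0.12 ± 0.05 (adjusted p = 0.437); both were named after their values were seen. Dffa was lower in ETAQ in all of these fits.

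Genes next to Dffa on chromosome 4 did not pass the test. The 4 nearest tested genes on each side in the reference were Casz1, Gm13205, Gm17029 and Pex14 before it and Cenps, Pgd, Kif1b and Ube4b after it, and 0 of these 8 passed in the genotype comparison (edgeR; 0 at an unadjusted p under 0.05). Distances here are between lower coordinates, whichever the strand. Pex14, a peroxisomal import gene on the minus strand (148960535 to 149099876), is transcribed away from Dffa, whose plus-strand start is at 149104146. Pex14 was at 40.4 ± 1.30 normalised CPM in ETAQ and 40.4 ± 3.14 in WT, a log2 fold change of -0.00 ± 0.04 (SE, adjusted p = 0.997). Cenps, a kinetochore gene on the minus strand whose lower coordinate lies 23.0 kb away, was at -0.08 ± 0.11 (adjusted p = 0.869). Kif1b, an axonal transport motor gene whose human counterpart has been linked to an axonal neuropathy, was at -0.08 ± 0.04 (adjusted p = 0.500), and Ube4b, a ubiquitin ligase gene, at -0.06 ± 0.03 (adjusted p = 0.474). Within 1 Mb of Dffa 35 other genes were tested, with a median log2 fold change of -0.01 and 1 call, Fbxo2 (-0.15 ± 0.03, adjusted p = 0.0123), named after its value was seen. Casp9 and Dffb lie on the same chromosome as Dffa.

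**Figure D5:**
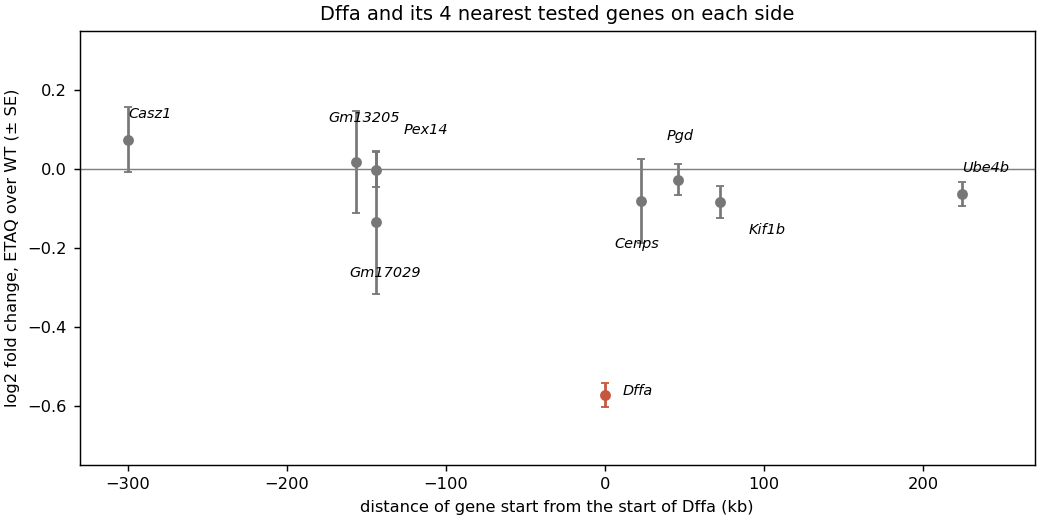
Log2 fold change of ETAQ over WT ± SE (y axis, edgeR) against the distance of each gene's start from that of Dffa in kb (x axis), for Dffa (red) and its 4 nearest tested genes on each side (grey). Gene start here is the lower coordinate, whichever the strand. The 8 neighbours lie between -0.14 and 0.08, and Dffa at -0.57.

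Reads of Dffa could be confused with those of other genes to a small extent. In the GENCODE M21 transcripts 4.04% of the 75-base stretches of Dffa also occur in transcripts of 15 other genes, most of them in Fmr1 (3.06%). Of these 15 genes 13 were tested and 0 passed in the genotype comparison (edgeR; 1 at an unadjusted p under 0.05; smallest adjusted p 0.417, Kyat3). For Bax 6.84% of the stretches are shared with the overlapping gene Gm45808, and for Bcl2 4.67% with the antisense gene D630008O14Rik, so reads of those genes may enter the levels of Bax and Bcl2, by an amount that was not measured. Dffb, Casp6 and Bcl2l1 share 0%, and Casp9 and Apaf1 0.383% and 0.153%.

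Genes whose levels across the 12 libraries were most like Dffa were mainly genes with large genotype differences. By Pearson's r of log2 normalised CPM, the nearest were Tmem254b and Tmem254a (0.989 each), D830030K20Rik (0.983), Susd2 (0.982) and Chodl (0.981). Tmem254a and Tmem254b held identical values and are near-identical copies, and with D830030K20Rik they lie on chromosome 14. The most opposed were Cdsn (-0.987), Fgf21 (-0.983), P2rx3 (-0.976), Taf7l (-0.973) and B4galnt2 (-0.970). WT and ETAQ libraries form separate clusters in Dffa, so these values describe the genotype difference. Within ETAQ alone (n = 6) r was 0.659 for Tmem254b, -0.08 for Susd2 and -0.15 for Chodl, and within WT alone (n = 6) it was 0.894, 0.584 and 0.519.

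After the means of the 4 genotype-by-sex groups were taken off, other genes came first. The highest r over the 12 libraries was then 0.971 for Zfp125, 0.924 for Gipc3, 0.919 for Tpst2, 0.911 for Tecpr1 and 0.909 for Ubqln4, and 0 of these 5 passed in the genotype comparison, with 0 at an unadjusted p under 0.05 (edgeR adjusted p from 0.683 to 0.995). They were the highest of 17189 values over 12 libraries, and the residual spread of Dffa is small. Of the other 7 members the nearest by that measure was Dffb (0.435) and the most opposed Bax (-0.847). Within ETAQ alone r was -0.003 for Dffb and -0.613 for Bax, and within WT alone it was 0.777 and -0.389. These values of r were not tested.

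Part of the motor neuron markers fell in the same ETAQ cords in which Dffa was lower. Their list was chosen with earlier results of these data known, so its count of calls is a description. Among all genes tested, 1.34% fell. Of 8 tested genes of that list 5 fell (edgeR adjusted p under 0.05): Chodl from 44.6 ± 5.62 to 12.5 ± 1.17 normalised CPM, Ahnak2 from 160 ± 19.2 to 73.3 ± 8.46, Slc10a4 from 26.9 ± 2.80 to 14.8 ± 1.15, Prph from 55.9 ± 4.08 to 31.3 ± 2.68, and Chat from 24.6 ± 1.12 to 15.8 ± 0.978 (SD, n = 6 each). The choline transporter gene Slc5a7 (log2 fold change -0.28 ± 0.08, adjusted p = 0.138) and the motor neuron factors Isl1 (-0.02 ± 0.19, adjusted p = 0.986) and Mnx1 (-0.14 ± 0.12, adjusted p = 0.779) did not pass. The summed level of the 8 genes was 204 to 259 normalised CPM in ETAQ and 393 to 474 in WT. The part of these genes' cells in the Dffa difference was not tested.

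Other cell type lists held few genes that passed for genotype. Of the pan-neuronal list 1 of 6 fell (Nefl) and 4 had an unadjusted p under 0.05, all 4 with lower values in ETAQ, with a sum of 5413 to 5788 normalised CPM in ETAQ and 6176 to 6624 in WT. Of the astrocyte list 1 of 5 rose (Slc1a3) and 3 had an unadjusted p under 0.05, all 3 with higher values in ETAQ, with sums of 3289 to 3948 and 2724 to 3440. Lists for inhibitory neurons, oligodendrocytes, microglia, endothelium, Schwann cells, skeletal muscle, red cells and neutrophils had 0 calls for genotype (edgeR; 1 oligodendrocyte and 1 microglia gene at an unadjusted p under 0.05). Nefl and Slc1a3 were named after their values were seen. A count of 0 does not show that these lists were alike: the median log2 fold change was 0.67 for Schwann cells, -0.76 for skeletal muscle, 1.15 for red cells and 1.31 for neutrophils, where the summed levels overlapped between genotypes. The skeletal muscle sum was 0.696 to 87.6 normalised CPM in ETAQ and 0.746 to 743 in WT. The same 4 lists stood apart between the sets of mice: the Schwann cell sum was 174 to 466 in mice 1 to 6 and 2.65 to 8.83 in mice 7 to 12, and the red cell sum 1455 to 2662 and 106 to 173. Dffa was at 63.1 to 100.2 and 63.0 to 100.3 normalised CPM in those sets, with a genotype difference of -0.57 and -0.58.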

How the data were processed

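Spinal cord RNA of 12 mice was compared between genotypes. Per the labels' protocols, libraries were polyA-selected, with 2 KAPA kits named, and sequenced as paired reads. Bowtie2 2.2.0 and RSEM 1.2.12 are the tools in the submitters' processing notes. Genome build, annotation and strand setting are not given in the sources used here. Each deposited table has columns for the expected count of each gene, its TPM and an estimated transcript length, per the file headers. The authors' expected counts are not normalised, and 15.4% of them were not whole. The authors' TPM values are scaled by length and sum to 1000000 in each library, within rounding.

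Expected counts were rounded and analysed in R 4.3.3 with edgeR 4.0.16: filterByExpr on the 4 genotype-by-sex groups, TMM factors (0.975 to 1.02) and the robust quasi-likelihood test, two-sided, with Benjamini-Hochberg adjustment over 17189 genes and a threshold of 0.05. Each standard error is the log2 fold change divided by the root of F. The genotype fit had sex as a covariate, and interactions were tested as terms of 1 fit. Within-sex and within-set values came from fits of all 12 libraries that share the spread. Likeness used log2 CPM with a prior count of 2. Alternatives were RLE scaling, DESeq2 1.42.0, limma 3.58.1 (voom, and log2 of TPM plus 0.1 or 1), no filter, other covariates and leaving out each mouse. The fits were also run on counts simulated from these libraries, with some genes changed in 1 contrast at a time. Other differences between sets or sexes were not simulated, and no rates from that run are given here. Replicates were separate mice by title number. Counting intervals were not used, and the libraries carry no molecular identifiers.

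The 8 genes, the gene lists and the split into mice 1 to 6 and 7 to 12 were chosen with earlier results of these data known. Named were the 8 genes, called pathway genes (up to 12) or the smallest p of each list without a call, the 5 genes most and least like Dffa, the 5 most like it with group means off, its 4 nearest tested genes on each side, and the motor neuron list. For some lists the gene with the smallest p is not reported here. Positions and shared 75-base stretches came from GENCODE M21 (GRCm38), and upstream windows from RefSeq (GRCm38.p6); the authors' build being unknown, they describe those references.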

Additional observations from a re-analysis of the deposited data

Results flagged for a closer look

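Of 46 groups of 6 values (CPM, TPM and length of each gene and the ratio of Dffa to Dffb, per genotype), 4 held 1 mouse far from the others by Dixon's ratio, above 0.625; chance alone marks about 1 in 20 groups. WT mouse 2 had 76.26 TPM of Dffa, where the other WT mice had 84.17 to 88.24, and it stayed above every ETAQ mouse. WT mouse 3 had 22.3 normalised CPM of Casp9, where the others had 24.4 to 25.5. WT mouse 12 was apart in 2 genes, with 31.5 TPM of Bax (others 34.9 to 36.8) and 75.5 TPM of Bcl2l1 (others 57.3 to 60.9), so its ratio of Bax to Bcl2l1, 0.417, was the lowest of the 12. Without WT mouse 12 the genotype log2 fold change of Bcl2l1 was 0.07 in place of -0.00.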

How the results depend on the processing

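The log2 fold change of Dffa stayed between -0.59 and -0.56 when each mouse was left out, and between -0.57 and -0.52 under the other alternatives. The TPM values gave -0.53 ± 0.05 (plus 0.1) and -0.52 ± 0.05 (plus 1; SE). The other 7 genes moved by less than their SD of log2 CPM within genotypes under every alternative run, Bcl2l1 from -0.04 to 0.07 and Casp6 from 0.00 to 0.15 with mice left out. The ratio of mean Dffa to Dffb ratios was 0.673, 0.652 from scaled counts, and 0.648 to 0.712 with mice left out.

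With DESeq2, 506 genes were called for genotype, 4 of the further pathway genes, 321 for sex, 3 for the genotype-by-sex interaction and 3 for the genotype-by-set interaction, against 330, 1, 16, 0 and 0. With set as a covariate 5 pathway genes and 9 genes for sex were called. Leaving out 1 mouse gave 236 to 315 genes for genotype, 1 to 3 pathway genes (2 without WT mouse 4, 3 without ETAQ mouse 11), 11 to 1180 for sex (1018 without ETAQ mouse 1, 1180 without ETAQ mouse 11), 0 to 2 and 0 to 3 for the interactions, and 163 to 1563 for set (163 without ETAQ mouse 1, 284 without ETAQ mouse 11). Those 2 mice are the ones whose sex and set do not coincide.

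No paired analysis was possible because every mouse has its own number and the genotypes share none. Casp6 and Dffb had the fewest counts of the 8, 46 to 103 and 116 to 222 per library; how far depth sets their errors was not tested. The genome build and strand setting of the counting are unknown, so overlapping and antisense genes could not be told apart from Bax and Bcl2.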
